A study of Mus musculus with 3 samples.

Results

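Amphiregulin (Areg), the other ligands of the epidermal growth factor (EGF) family, the ERBB receptors and the protease that releases the ligands were followed in group 2 innate lymphoid cells (ILC2s). The set was fixed by function rather than by level and holds 10 genes of the 27179 gene IDs in the count table. They are the ligands Areg, Hbegf, Ereg, Btc, Tgfa and Egf, the receptors Egfr, Erbb2 and Erbb3, and the protease Adam17. All 10 were found by matching Entrez gene IDs to mouse symbols. The study is titled as one on the circadian clock in gut ILC3s. It contributed here a single group of 3 libraries of RNA sequencing from wild-type C57BL/6 mice, with 1 library for each of 3 mice per the design text. The cells were sorted as KLRG1+, CD127+, CD90.2+ and CD45+, and cells bearing B220, CD11c, CD11b, NK1.1, CD8, CD5 or CD3 were removed. The sources used here give no tissue, time of day, age or treatment. With no second condition, levels were compared between genes and between libraries only.

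EGF-family ligands are made as membrane-anchored precursors, and metalloproteases, above all ADAM17, cut them off the cell surface. The freed ligand binds EGFR or a related ERBB receptor on the same or a neighbouring cell, and the receptors pair and signal through RAS and ERK. In mouse ILC2s amphiregulin is best known as the product through which these cells act on epithelium during tissue repair, so that the ligand is made by one cell type and read by another.

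The libraries, called samples 1 to 3 after their titles, held 17819551 to 26374248 counts. Levels are CPM, counts scaled to 1000000 per library, with library sizes adjusted by TMM, the trimmed mean of M values. At these depths a count of 0 allows up to 0.115 to 0.171 CPM (3 counts), a limit that covers counting error only. All 9 ILC2 markers listed were detected, which here means at least 1 CPM in each library, led by Id2 (7782 ± 1497 CPM), Icos (1667 ± 158) and Klrg1 (1304 ± 234). Klrg1, Il7r (CD127) and Thy1 (CD90.2) encode proteins used in the sort, so their detection is no separate evidence of identity. Epithelial markers were detected for 1 of 9 genes (Epcam, 19.7 ± 13.9; 2 genes without sample 2), and macrophage and monocyte markers for 2 of 9 (Lyz2 and Cd14). T cell markers were detected for 3 of 6, with Trac (13.5 ± 1.04) highest, then Cd3e (6.92 ± 3.04) and Cd3d (1.97 ± 1.03). Mast cell and basophil markers were detected for 2 of 6, Cpa3 (11.4 ± 6.64) and Fcer1a (9.78 ± 8.82), with Mcpt8, Mcpt1, Ms4a2 and Prss34 at 0 counts. Of 6 stromal and endothelial markers 2 were detected, Pecam1 (24.6 ± 10.3) and Col3a1 (2.47 ± 0.934), with Cdh5 at 0 counts. B and plasma cell markers were detected for 5 of 7, with Igkc, Jchain and Igha highest and Ms4a1 and Pax5 at 0 counts, and their summed level was 12124, 33877 and 62150 CPM in samples 1, 2 and 3. By the same rule 31.1% of all gene IDs were detected. In bulk RNA, fewer cells of a type and less RNA per cell cannot be told apart.

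The members fell into 3 ranges of level. Areg was among the most abundant genes of the cells. Adam17 and Hbegf were far below Areg but present in every library, and the remaining 7 members were at or near 0. By the rule of 1 CPM in each library, 3 of 10 members were detected, against 31.1% of all gene IDs, so the share of members is close to that of the whole table. By role, 2 of 6 ligands, 0 of 3 receptors and the protease passed. The median of the members' mean levels was 0.153 CPM, beside 0.0441 CPM over all gene IDs.

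**Figure D1:**
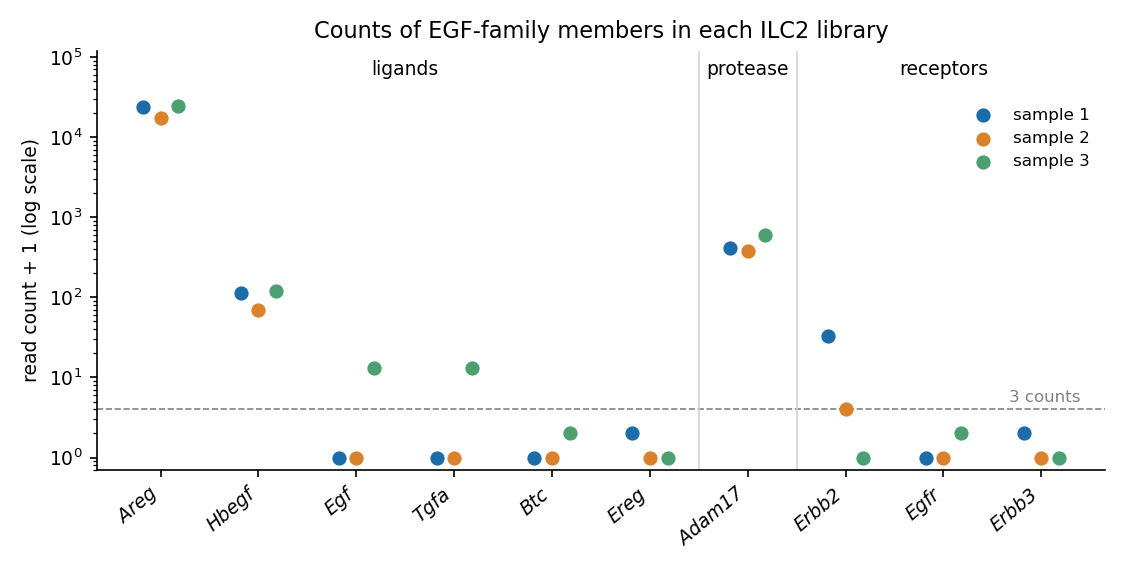
Read count plus 1 on a log scale (y axis) for each of the 10 members (x axis, grouped as ligands, protease and receptors); each point is 1 library and the dashed line marks 3 counts. Areg lies between 17502 and 24263 counts, Adam17 and Hbegf between 68 and 598, and the other 7 genes have at most 32 counts in any library.

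Areg (Entrez 11839) had 23899, 17502 and 24263 counts in samples 1, 2 and 3. On the CPM scale these were 1054, 995 and 931, a mean of 993 ± 62.0 (SD, n = 3). The 3 libraries lay close together, and the gene ranked 120th, 145th and 148th of all gene IDs in them. By mean level 99.5% of gene IDs and 98.4% of detected genes were below it. Areg has a short transcript, with 1215 bases of exon in GENCODE M21, and no other annotated gene shares its exons. Divided by exon length, its level was 818 ± 51.0 CPM per kb, the 88th highest mean of the genes with a length.

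The other detected ligand was Hbegf (Entrez 15200), the heparin-binding EGF-like growth factor, which is made by macrophages among other cells. It had 111, 68 and 120 counts, or 4.90, 3.87 and 4.60 CPM. The mean was 4.46 ± 0.53 CPM (SD, n = 3), and the value was similar in all libraries. Per kb of exon, Areg exceeded Hbegf in 3 of 3 libraries, by 857, 1024 and 804 times. These folds rest on 4834 bases of summed exon for Hbegf. Its longest transcript has 2890 bases, by which the folds would be smaller. Of the macrophage markers, Adgre1, S100a8 and S100a9 were at 0 counts. Lyz2 reached 26.2 ± 9.14 CPM and Cd14 6.59 ± 2.76, and the summed level of the 9 markers was 29.0 to 46.4 CPM. Sample 2 had the highest sum of these markers and the lowest Hbegf level. Most of the sum was Lyz2, at 21.0, 36.7 and 20.8 CPM in samples 1, 2 and 3. Cd14 was also highest in sample 2, but Cd68 (5, 17 and 91 counts) and Csf1r (1, 0 and 43 counts) were highest in sample 3. Itgam and Fcgr1 had at most 3 counts in any library. A part of such cells in the Hbegf counts was not tested.

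The other 4 ligands were not detected. Epiregulin (Ereg) had a single count, in sample 1, and betacellulin (Btc) a single count, in sample 3. Transforming growth factor alpha (Tgfa) and Egf, the founding member of the family, each had 12 counts in sample 3 and 0 in samples 1 and 2. Their level in sample 3 was thus 0.460 CPM. The counts of 0 in samples 1 and 2 allow up to 0.132 and 0.171 CPM, which is below the level in sample 3. A pattern of at least 10 counts in 1 library and 0 in the others was shared by 802 gene IDs, of which 446 had their counts in sample 3. That library was also the deepest and had the highest summed level of B and plasma cell markers. The macrophage markers Cd68 and Csf1r (1, 0 and 43 counts) and the T cell marker Cd5 (0, 1 and 50 counts) were highest there too. The summed levels of macrophage markers and of T cell markers were not highest in it. The part of any such cells in the Tgfa and Egf counts was not tested. Exons of Tgfa share 118 bases with an opposite-strand gene, and those of Egf 607 and 500 bases with a pair of such genes. The kit does not mark strand, so reads there cannot be assigned to either strand.

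Areg thus held nearly all reads of the 6 ligands. Its share of their summed counts was 99.5% in sample 1 (95% Wilson interval 99.4% to 99.6%), 99.6% in sample 2 (99.5% to 99.7%) and 99.4% in sample 3 (99.3% to 99.5%). The mean share was 99.5% ± 0.104 (SD, n = 3), and the intervals cover counting error only. After division by exon length the share was 99.9% in each library. The ligands outside the member list added few reads. Epgn (epigen), Nrg3 and Nrg4 had 0 counts in all libraries and Nrg2 had 4, 0 and 4. Nrg1 (neuregulin 1) had 120, 0 and 0 counts, so that in sample 1 alone it stood at 5.29 CPM, above Hbegf in the same library. With these 5 genes counted in, the share of Areg was 99.0%, 99.6% and 99.4%.

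**Figure D2:**
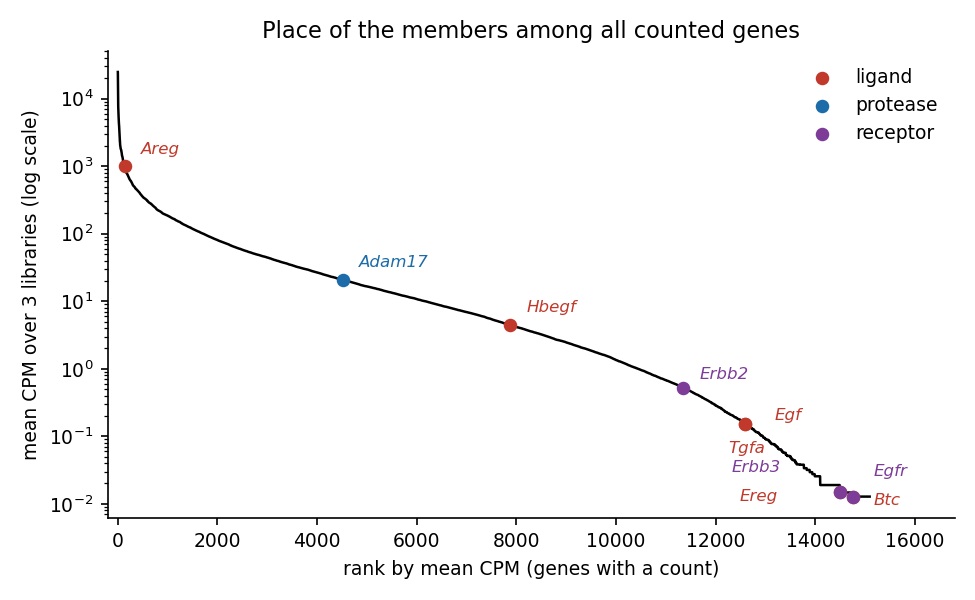
Mean CPM over 3 libraries on a log scale (y axis) against rank by mean CPM (x axis) for genes with a count; the black line is all genes and the coloured points are the members by role. Areg ranks 139th, Adam17 4514th and Hbegf 7873rd, and the other 7 members rank 11344th or lower, where Ereg shares a point with Erbb3, Btc with Egfr and Tgfa with Egf.

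Areg is part of a ligand cluster on chromosome 5 (coordinates in GRCm38.p6, the assembly of mm10). Epgn lies at 91027517 to 91035212, Ereg at 91074617 to 91093649, Areg at 91139599 to 91148432 and Btc at 91357261 to 91402994. The gap from Areg is 46.0 kb to Ereg, 104 kb to Epgn and 209 kb to Btc. Only Areg of these 4 genes had more than 1 count in any library. Within 500 kb of Areg the annotation holds 14 protein-coding genes with a row in the table, Areg included, a window chosen with the values known. On the far side of Epgn lie the neutrophil-attracting chemokine genes Cxcl1 and Cxcl2, 246 and 234 kb from Areg. Cxcl1 had 112, 101 and 129 CPM and Cxcl2 had 165, 116 and 82.0 CPM in samples 1, 2 and 3. Cxcl3 had 32.4 ± 7.82 CPM (SD, n = 3), Mthfd2l 4.01 ± 3.15 and Pf4 3.87 ± 1.16. These 5 genes and Areg were the 6 detected genes of the window, so that the ligand genes Epgn and Ereg, at or near 0, lay between Areg and its expressed neighbours.

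**Figure D3:**
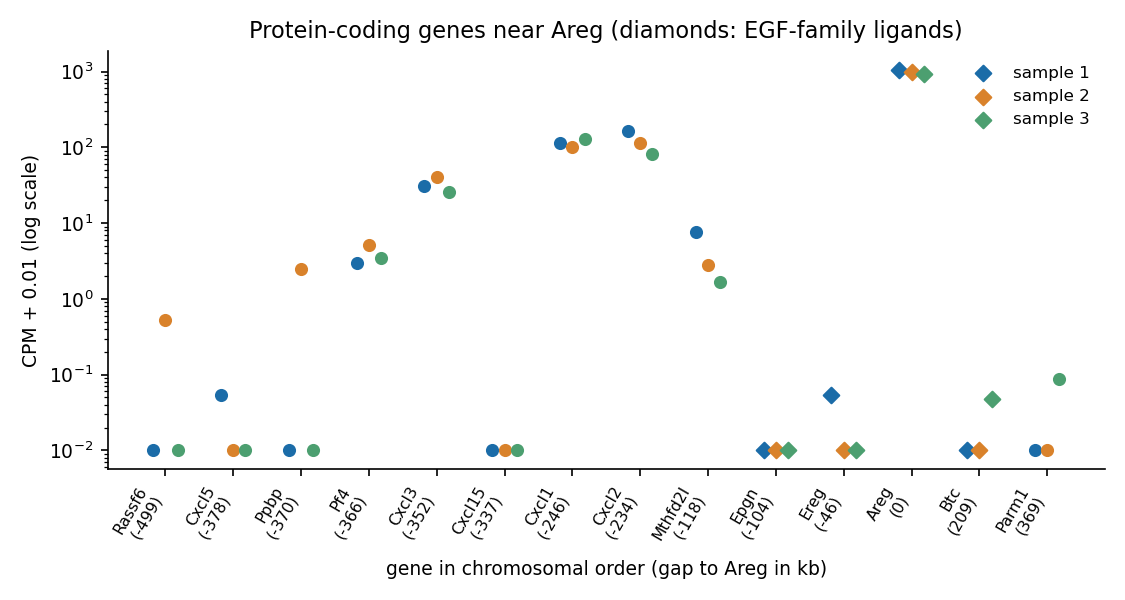
CPM plus 0.01 on a log scale (y axis) for the 14 protein-coding genes within 500 kb of Areg in chromosomal order (x axis, with the gap to Areg in kb, negative before it); points are libraries and diamonds are EGF-family ligands. Areg stands at 931 to 1054 CPM, Cxcl1 and Cxcl2 at 82.0 to 165 CPM, and Epgn, Ereg and Btc at or near 0.

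The start-site sequences of Areg, Epgn and Btc are shown because genes of the cluster differed from near 0 to about 1000 CPM, together with that of Adam17, which was present at a modest level. RefSeq promoter windows of GRCm38.p6, from 250 bases before to 50 bases after the start, were on hand for 7 of 10 members and for Epgn. None was on hand for Hbegf, Ereg or Erbb3. The window of Areg is chr5:91139349-91139648 (+ strand), that of Epgn chr5:91027267-91027566 (+), that of Btc chr5:91402945-91403244 (-) and that of Adam17 chr12:21373583-21373882 (-). Each is printed 5′ to 3′ on the strand of its gene. Capitals mark exact matches, on either strand, to the cyclic AMP response element, or CRE (TGACGTCA), the TATA box (TATAAA), the GC box (GGGCGG), the CCAAT box or an AP-1 site (TGANTCA); no matches overlap.
Areg: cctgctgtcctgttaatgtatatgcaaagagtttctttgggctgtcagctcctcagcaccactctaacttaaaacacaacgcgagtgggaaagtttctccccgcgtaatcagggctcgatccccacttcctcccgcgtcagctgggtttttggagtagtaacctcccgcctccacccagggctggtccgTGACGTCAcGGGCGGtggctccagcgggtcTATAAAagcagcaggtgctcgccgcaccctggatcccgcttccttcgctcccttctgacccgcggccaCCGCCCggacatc
Epgn: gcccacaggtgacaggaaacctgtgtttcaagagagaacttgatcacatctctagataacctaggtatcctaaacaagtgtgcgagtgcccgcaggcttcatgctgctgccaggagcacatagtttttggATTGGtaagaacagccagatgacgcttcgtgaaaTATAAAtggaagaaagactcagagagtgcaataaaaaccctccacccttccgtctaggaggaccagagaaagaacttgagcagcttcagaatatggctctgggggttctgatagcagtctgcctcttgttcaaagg
Btc: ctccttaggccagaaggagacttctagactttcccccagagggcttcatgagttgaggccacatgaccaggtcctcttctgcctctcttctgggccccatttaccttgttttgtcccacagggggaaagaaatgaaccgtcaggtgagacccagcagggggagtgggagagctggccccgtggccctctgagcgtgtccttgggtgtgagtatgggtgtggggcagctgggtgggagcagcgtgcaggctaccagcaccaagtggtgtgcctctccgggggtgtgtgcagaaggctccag
Adam17: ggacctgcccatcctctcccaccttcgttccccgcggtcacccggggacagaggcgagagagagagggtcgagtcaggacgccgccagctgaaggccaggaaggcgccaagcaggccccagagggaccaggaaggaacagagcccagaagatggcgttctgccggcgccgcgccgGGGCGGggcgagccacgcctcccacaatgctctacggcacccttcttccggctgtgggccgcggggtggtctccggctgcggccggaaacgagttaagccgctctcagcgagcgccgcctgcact
The Areg window holds a CRE 61 bases, a GC box 52 bases and a TATA box 31 bases before the start, and a second GC box on the opposite strand 37 bases after it. Among 32544 different RefSeq windows of the same length, 586 hold the CRE. The other shares are 13.6% for the TATA box, 35.9% for the GC box, 37.4% for the CCAAT box and 7.79% for the AP-1 site. Both the CRE and the TATA box are in 0.169% of them, or 55 windows. No other pair was counted, and the Areg window holds this one, so the share does not measure how unusual that window is. The Epgn window holds a TATA box 86 bases before the start and a CCAAT box on the opposite strand. In the Adam17 window a GC box lies 75 bases before the start, and the Btc window has none of the 5 motifs. The CpG dinucleotide occurs 21 times in the Areg window, 30 times in that of Adam17 and 5 times each in those of Epgn and Btc. A match of letters is a description only and does not show that a factor binds there.

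Adam17 (Entrez 11491), on chromosome 12 at 21323509 to 21373632, encodes the main sheddase of amphiregulin. It had 413, 373 and 598 counts, or 18.2, 21.2 and 22.9 CPM in samples 1, 2 and 3. The mean was 20.8 ± 2.39 CPM (SD, n = 3), near the middle of the detected genes, of which 46.9% were lower. Its exons share 311 bases, or 4.35% of their length, with Iah1 on the opposite strand, which had 37.8, 23.8 and 29.8 CPM, and reads in the shared stretch cannot be assigned. Per kb of exon, Adam17 stood at 2.91 ± 0.333 CPM per kb. Areg exceeded it by 341, 276 and 239 times in samples 1, 2 and 3. The mean difference was 7.91 ± 0.23 on the scale of log2(CPM per kb + 0.5), with an exact two-sided sign-flip p of 0.25. With 3 libraries 0.25 is the smallest p this test can give, so no difference between genes within a library could pass 0.05.

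None of the receptors was detected. The median of their mean levels was 0.0147 CPM, beside 0.153 CPM for the ligands, but Erbb2 (0.527 CPM) had a higher mean than Tgfa, Egf, Ereg and Btc. Egfr, the receptor of amphiregulin, had 0, 0 and 1 counts in samples 1, 2 and 3. Erbb3, a neuregulin receptor with little kinase activity of its own, had 1, 0 and 0 counts, and Erbb4 was at 0 counts in all libraries. Erbb2, the co-receptor for which no ligand is known, was the exception in a single library, with 32, 3 and 0 counts, or 1.41, 0.171 and 0 CPM. Apart from Erbb2 in sample 1, no receptor was above the limit that a count of 0 allows. Sample 1 also had the highest summed level of epithelial markers, 33.6 CPM beside 10.01 and 27.7 CPM in samples 2 and 3. Of the 9 markers, Epcam had 667, 65 and 674 counts and Lgals4 had 93, 1 and 48, so that Lgals4 was highest in sample 1, as Erbb2 was. Krt18 had 0, 74 and 0 counts and Vil1 had 0, 32 and 0, both in sample 2 only. Krt19 had 1, 2 and 0 counts, Krt8 and Cldn4 a single count each in sample 2, and Cdh1 and Muc2 were at 0 counts in all libraries. The part of epithelial cells in the Erbb2 counts was not tested. Summed over the 3 receptors, 33, 3 and 1 counts stood beside 24011, 17570 and 24408 counts of the 6 ligands.

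Ordered by mean CPM per kb, the members ran Areg, Adam17, Hbegf, Erbb2, Tgfa, Egf, Ereg, Btc, Erbb3 and Egfr. The ranges over libraries did not overlap between Areg and Adam17, between Adam17 and Hbegf, or between Hbegf and Erbb2. Adam17 exceeded Hbegf by 1.26 ± 0.22 (SD, n = 3) and Hbegf exceeded Erbb2 by 1.27 ± 0.28 on the scale of log2(CPM per kb + 0.5), each in 3 of 3 libraries at the smallest exact p of 0.25. From Erbb2 downwards the ranges of neighbours overlapped, and the order of those 7 genes cannot be told from counts this low.

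Other genes of the shedding step were present beside Adam17. Of 13 listed, 9 were detected, led by Furin (65.7 ± 18.1 CPM), the convertase that matures ADAM17, Adam19 (37.1 ± 17.0) and Adam10 (15.9 ± 3.19), the sheddase of Egf and Btc. Per kb of exon, Adam10 was 1.15, 0.937 and 1.24 times Adam17 in samples 1, 2 and 3, so that neither was higher in all libraries on that scale. Without division by length, Adam17 was higher in every library, with 18.2, 21.2 and 22.9 CPM beside 14.4, 13.6 and 19.5 CPM for Adam10. Their order thus depends on the length used. The 2 iRhom genes, whose products carry ADAM17 to the surface, were both low. Rhbdf1 had 5.34, 1.08 and 2.11 CPM and Rhbdf2 had 0, 1 and 32 counts, or 1.23 CPM in sample 3. Their partner Frmd8 had 1.76 ± 0.115 CPM. Timp3, the tissue inhibitor that blocks ADAM17, had 4, 3 and 37 counts.

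Downstream genes were detected although the receptors were not. Of 9 adaptor and RAS genes 8 were detected, led by Nras (92.0 ± 15.9 CPM), the adaptor Grb2 (45.1 ± 13.1) and the exchange factor Sos2 (16.1 ± 3.20), and Gab1 was at 0 counts. Such genes serve many receptors and are not specific to ERBB signalling. Of 11 feedback inhibitors 5 were detected, led by Spry2 (50.1 ± 23.7), Socs5 (36.2 ± 12.3) and Errfi1 (31.3 ± 10.2), which encodes a direct inhibitor of EGFR, while Spry4 was at 0 counts. Spry1 had 0.618, 13.3 and 8.82 CPM and was low in sample 1 only. All detected shares here stood above the 31.1% of all gene IDs, with the lists chosen from genes of known function.

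**Figure D4:**
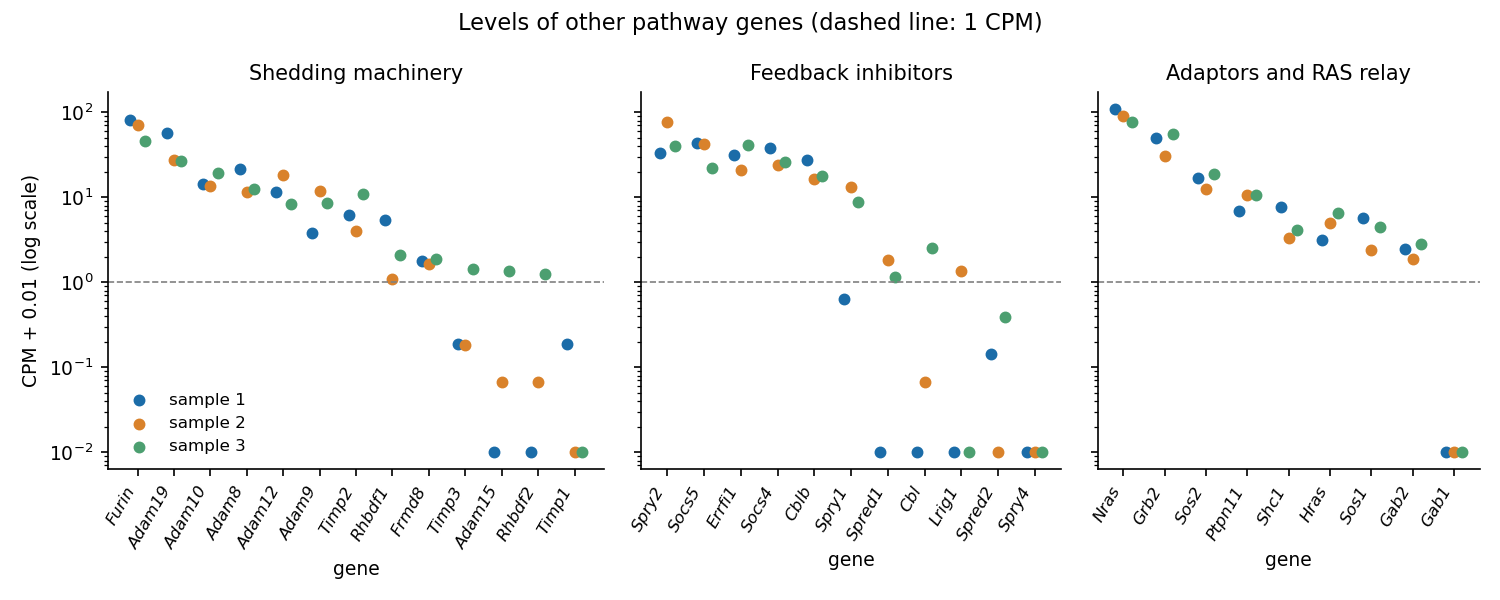
CPM plus 0.01 on a log scale (y axis) for genes of the shedding step, feedback inhibitors and adaptor and RAS genes (x axis, sorted by mean); points are libraries and the dashed line marks 1 CPM. Furin, Spry2 and Nras lead their panels, and Timp3, Adam15 and Rhbdf2 pass the line in sample 3 only.

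Set beside the type 2 effector genes, Areg was of the order of Il4 and Il5 and had a lower spread between libraries, a difference that was not tested. Per kb of exon, Csf2 exceeded Areg by 10.8, 14.1 and 7.96 times and Il5 by 1.86, 1.10 and 1.63 times. Il4 was lower than Areg in samples 1 and 3 and higher in sample 2. Areg exceeded Il13 by 59.7, 26.9 and 51.1 times. The coefficient of variation (CV) of Areg over the 3 libraries was 6.24%, beside 30.6% for Csf2, 28.2% for Il5, 51.6% for Il4 and 45.4% for Il13. The less abundant Il9 (7.48 ± 6.26 CPM) had a CV of 83.7%. The median CV of detected genes was 28.5%, and 4.07% of them had a lower CV than Areg. The more abundant genes had lower CVs, and among the 1713 genes with a mean of at least 100 CPM the median was 16.8% and 9.81% were below Areg. Adam17 (11.5%) and Hbegf (11.9%) also had a lower CV than the median detected gene.

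**Figure D5:**
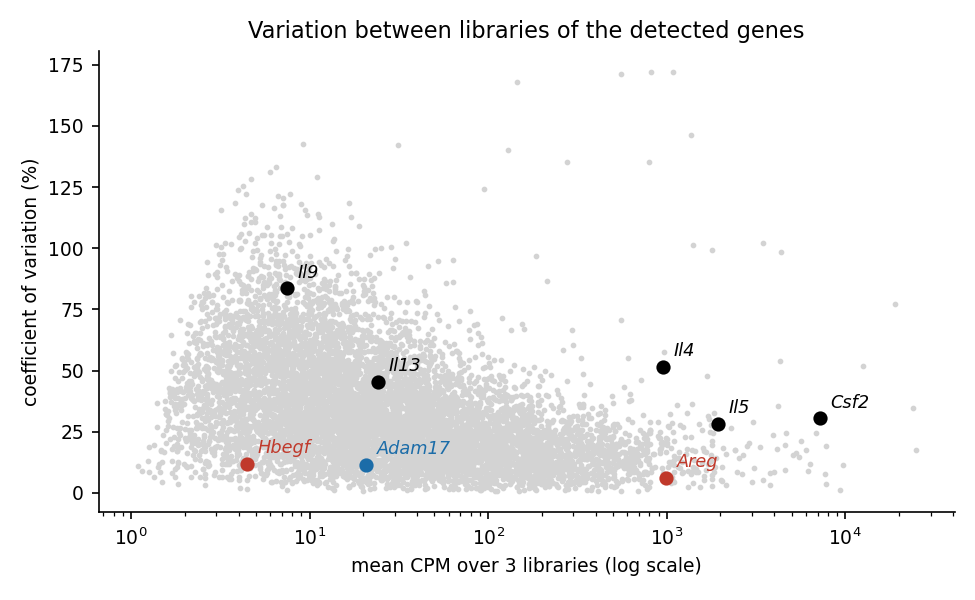
Coefficient of variation over 3 libraries in percent (y axis) against mean CPM on a log scale (x axis) for all detected genes (grey); ligands are red, Adam17 blue and type 2 effector genes black. Areg lies at 6.24%, whereas Csf2, Il5, Il4 and Il13 lie between 28.2% and 51.6% and Il9 at 83.7%.

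Areg and Hbegf are known as genes that growth factor and stress signals switch on quickly, and immediate early genes were therefore viewed beside them. Of 11 listed, 9 were detected, against 31.1% of all gene IDs, with the list chosen from genes of known function. Junb had 926, 425 and 1528 CPM, Dusp1 had 477, 203 and 975 CPM and Fos had 448, 215 and 322 CPM in samples 1, 2 and 3. Of the 9 detected genes, 4 were lowest in sample 2 (Junb, Dusp1, Fos and Ier2), as Hbegf was. Another 3 were lowest in sample 3 (Fosb, Egr1 and Jun), as Areg was, and 2 in sample 1 (Atf3 and Nr4a1). Their order over libraries was thus mixed. Over 3 libraries such orders are a description only.

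The variation between libraries was tested over all genes. edgeR's quasi-likelihood fit gave each gene's quasi-dispersion, which was compared with that of genes of like abundance. Of 9206 genes tested, 19 were more variable than the trend at an adjusted p below 0.05, or 0.206%. Of the 10 members 3 passed the filter on low counts, and 0 of them were called. None was at an unadjusted p below 0.05, which 404 of the 9206 genes reached. limma called 0 members and 17 of the 9206 genes. DESeq2 marked 0 members and 24 of the 9206 genes as dispersion outliers. With so few genes called over the whole table, 0 calls among 3 members are not a result about the members. The log2 ratio to the trend was -3.26 for Areg, -3.53 for Adam17 and -4.62 for Hbegf, each with an adjusted p of 0.998 in edgeR's quasi-likelihood test. The 3 genes thus varied less than the trend, and the test asks only for higher variation. The 7 members that did not pass include those counted in 1 library only, so this count says nothing of them.

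The genes most like Areg in level, by the Euclidean distance of log2(CPM + 0.5) over 3 libraries among detected genes, were Ube2d3 (distance 0.115; 1045, 939 and 982 CPM), Eef1a1 (0.186) and Rpl4 (0.211). Eef1a1 and Rpl4 have many near-identical pseudogenes, so their counts may be incomplete. For Adam17 the nearest were Ppp6r1 (0.0636), Catsperd (0.119) and Cisd3 (0.138). With 3 points such a likeness is a description of level only.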

How the data were processed

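The authors deposited whole-number read counts per Entrez gene ID, not normalized, with 1 column per library. The libraries come from a SMARTer low-input kit, per the labels' protocols, which amplifies full-length cDNA and does not mark strand. CASAVA 1.8.2, STAR 2.3.0 and mm10 are named in the submitters' processing notes. How reads were counted per gene is not given in the sources used here.

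Symbols came from RefSeq (GRCm38.p6), which matched 25275 of 27179 IDs, and summed exon lengths from GENCODE M21. TMM factors (edgeR 4.0.16, R 4.3.3) were 1.03, 0.987 and 0.989. Pairs of libraries differed by more than sampling noise, with a chi-square of 133 to 226 per degree of freedom. Variability was tested with edgeR (intercept only, filterByExpr with minimum count 10, upper-tail F test, Benjamini-Hochberg) and checked on simulated data. DESeq2 1.42.0 and limma 3.58.1 were alternatives. P-values of the F test measure spread between these samples, and those of the sign-flip tests concern differences between genes within them.

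The rule for names took all members and, of each list, the 3 highest detected genes and those at 0 counts; other genes named were chosen after their values were seen. 1 gene of the fixed lists was left out of all list counts and is not reported here. Members, lists and motifs were chosen with earlier results of these data known.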

Additional observations from a re-analysis of the deposited data

How the results depend on the processing

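No paired comparison of conditions was possible because there is only 1 group, with no second arm to pair. The sign-flip tests between genes were paired by library. The share of Areg among ligand counts was 99.5%, 99.9% per kb of exon and 99.3% with Epgn and Nrg1 to Nrg4 counted in. Of 62 alternatives to the main values of the members, the other 60 stayed within 1 SD, within 1.5 times for counts or kept their direction. Of 162 alternatives for undetected members, single p-values and listed genes, 8 moved, all of them counts of detected list genes, 7 at a minimum of 5 CPM and 1 without sample 2. Without each library in turn, Areg was 951 to 1031 CPM, Adam17 19.8 to 21.8 CPM, Hbegf 4.18 to 4.78 CPM and the share of Areg 99.5% to 99.6%. The log2 difference of Areg over Adam17 was 7.91 per kb, 7.31 by the longest transcript and 5.55 without division by length. At a minimum of 5 CPM, 2 members were detected, since Hbegf no longer passed, with 5 of 13 shedding genes in place of 9 and 4 of 9 adaptor and RAS genes in place of 8. The 19 genes called over the whole table became 0 with a robust prior and 31 without sample 1, while 0 members were called in every setting run; the cause was not tested. Where Ereg, Btc, Egfr and Erbb3 had 0 counts, depth limits statements to 0.115 to 0.171 CPM. The library in which each had a single count is not covered by this limit.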
